A study of Mus musculus with 12 samples.

Results

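Follistatin, the activin subunits and their receptors were followed in lung and liver of virgin and pregnant mice. The members were 9 genes chosen by name: Fst and Fstl3 (activin-binding proteins), Inhba, Inhbb, Inhbc and Inhbe (the beta subunits of activins) and Acvr2a, Acvr2b and Acvr1b (activin receptors). They were covered by 16 of the 45037 probe sets other than controls, and each of these 16 carried a single gene symbol in the platform annotation. One further probe set, shared by Orc4 and Acvr2a, was left out. The family was picked from results of these same arrays in which Fst was higher in pregnant lung. The lung change of Fst, and its difference from the liver change, are therefore given as a description with no test. The virgin lung level of Fst is part of that lung change, so p-values of its virgin tissue difference carry the same limit.

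The mice were NOD/SCID females, an immunodeficient strain with very few mature T and B cells, 8 to 10 weeks of age when the experiments began. Each of the 4 groups (virgin lung, pregnant lung, virgin liver, pregnant liver) held 3 one-colour arrays, and each array measured RNA pooled from 2 mice. Pregnant mice were at day 16, timed by vaginal plug, and the labels name no other treatment. Values are log2 expression values, so a difference of 1 is a doubling. A p-value of a single gene sets a difference of group means against the spread between pools. In the main fit that spread is shared by the 4 groups. Lung arrays therefore also enter the p-values, SEs and intervals of liver, and liver arrays those of lung. With 3 arrays a group, precision is limited by their number.

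Activins are dimers of beta subunits and belong to the TGF-beta family of secreted signals. They bind a type II receptor (Acvr2a or Acvr2b), which recruits and activates the type I receptor Acvr1b, and this receptor phosphorylates Smad2 and Smad3. Follistatin and its relative Fstl3 bind activins and keep them from the receptors. Inhbc and Inhbe are known as subunits made mainly by liver, and liver is also a known source of circulating follistatin.

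The labelled tissues carried their own markers. All 9 hepatocyte markers had a higher level in virgin liver and all 8 lung epithelium markers a higher level in virgin lung. Of the lung epithelium markers Sftpc, Sftpa1, Scgb1a1 and Nkx2-1 lay in liver within the reference for genes without shown signal. The other 4 lay above it in virgin liver, Ager at 4.73, Sftpb at 5.36, Sftpd at 5.41 and Abca3 at 10.35. That reference was the 95th percentile of 44 probe sets of olfactory receptor genes, a log2 value of 4.26 in lung and 4.59 in liver. Array medians ran from 4.491 to 4.555. Control RNAs with a poly-A tail, which are added to a sample ahead of its labelling, averaged between 10.78 and 11.28 on 10 arrays, but 4.683 and 5.008 on the arrays of virgin and pregnant liver pool 3. For liver, values of pools 1 and 2 alone and of pool 3 alone are therefore added for some members. These include each member probe set whose sign differed between them or whose call differed in pools 1 and 2. Whole lung and liver hold many cell types, and fewer cells of a type cannot be told apart from less RNA per cell.

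**Figure D1:**
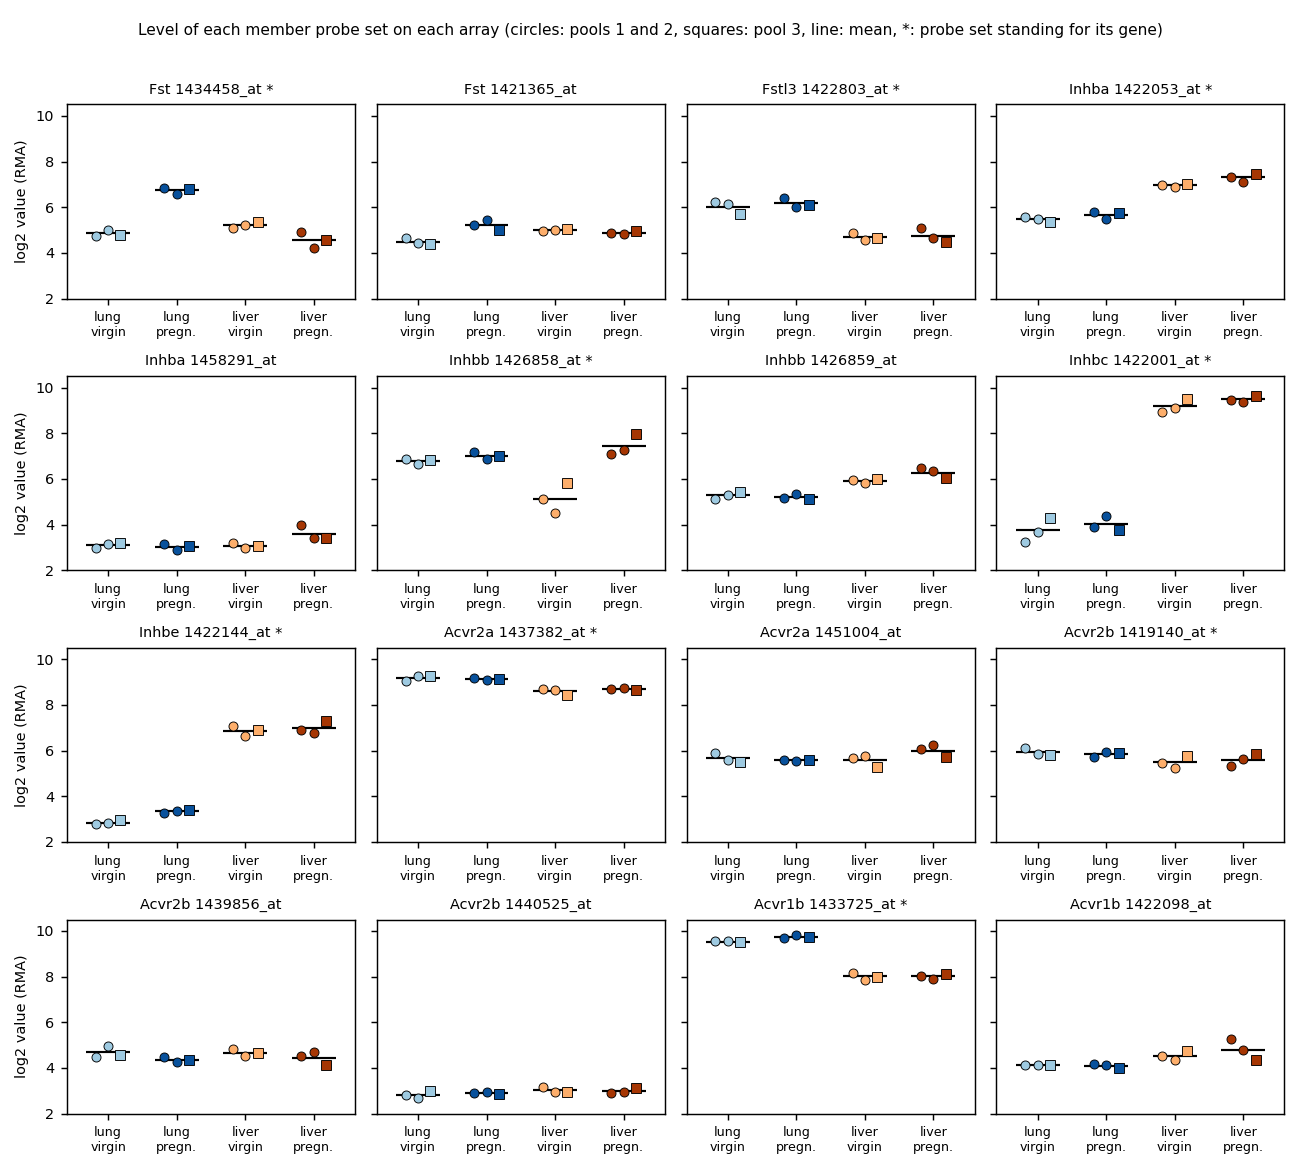
Log2 value of each of the 16 member probe sets (1 panel each) on each of the 12 arrays, in the order virgin lung, pregnant lung, virgin liver, pregnant liver. Circles are pools 1 and 2, squares pool 3, lines the mean of 3 pools, and an asterisk marks the probe set that stood for its gene. The 3 pregnant lung arrays of Fst 1434458_at lie between 6.60 and 6.84, above all other arrays, and the 3 virgin liver arrays of Inhbb 1426858_at lie between 4.50 and 5.82, below all other arrays.

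Follistatin was higher in pregnant than in virgin lung with both of its probe sets. For probe set 1434458_at the 3 virgin lung pools read 4.76, 4.99 and 4.80 and the 3 pregnant lung pools 6.84, 6.60 and 6.80, so the groups lay far apart and did not overlap. The difference was 1.89 ± 0.15 (log2, SE, n = 3 pools per group), or 3.72-fold. Probe set 1421365_at read 4.64, 4.45 and 4.38 in virgin and 5.24, 5.43 and 4.99 in pregnant lung, a difference of 0.73 ± 0.12 (log2, SE) or 1.65-fold, again without overlap. The first probe set had the higher mean over the 12 arrays and stood for the gene. Since the groups of both probe sets were separate, leaving out a single array could not change the direction, and nothing is read from that.

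In liver Fst did not follow the lung. Probe set 1434458_at read 5.10, 5.21 and 5.37 in virgin and 4.93, 4.20 and 4.55 in pregnant liver. All 3 pregnant pools were below all 3 virgin pools, and the level fell by 0.67 ± 0.15 (log2, SE, limma adjusted p = 0.0131, 3 pools a group). That SE uses the spread shared by all groups, while the pregnant liver pools were more scattered (SD 0.363) than those of any other group. The pregnant mean of 4.56 lay within the reference for genes without shown signal. Pools 1 and 2 alone gave -0.59 (limma adjusted p = 0.094) and pool 3 alone -0.82. The call was also lost without virgin liver pool 3 (limma adjusted p = 0.0576), without pregnant liver pool 2 (0.0529) and with the 6 liver arrays fitted alone (0.0623). The second probe set, 1421365_at, differed by -0.14, which did not pass (adjusted p = 0.554).

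The order of the Fst groups by 1434458_at was therefore pregnant lung (6.74 ± 0.129, SD, n = 3), virgin liver (5.23 ± 0.137), virgin lung (4.85 ± 0.123) and pregnant liver (4.56 ± 0.363). Virgin lung and pregnant liver were next to each other in this order, and their pools overlapped. Virgin lung was below virgin liver by 0.38 on the log2 scale (95% interval of lung minus liver -0.71 to -0.05, limma adjusted p = 0.0471). That call was lost without virgin lung pool 1 or 3, virgin liver pool 2 or 3, any one of the pregnant lung pools or pregnant liver pool 3 (limma adjusted p between 0.0508 and 0.154), and within liver pools 1 and 2 (0.164). Probe set 1421365_at had the same direction, with virgin lung below virgin liver by 0.52 on the log2 scale (limma adjusted p = 0.0015). For both probe sets the virgin lung values also enter the lung change from which the family was picked. The virgin tissue difference of Fst is therefore a description too.

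Fstl3, which encodes the other activin-binding protein of the set, showed no change that passed in either tissue. Its virgin lung pools read 6.22, 6.12 and 5.69 and its pregnant lung pools 6.39, 6.03 and 6.09. The groups overlapped, and the change was 0.16 with a 95% interval of -0.20 to 0.52 (log2, adjusted p = 0.968). Liver read 4.88, 4.58 and 4.66 in virgin and 5.07, 4.65 and 4.47 in pregnant mice, a change of 0.02 with an interval of -0.34 to 0.38 (adjusted p = 0.959). Its sign differed between pools, at 0.13 in pools 1 and 2 and -0.19 in pool 3. Virgin lung was 2.47-fold above virgin liver (log2 1.30 ± 0.17, SE, limma adjusted p = 7.91e-06).

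Among the activin subunits Inhbb, the subunit of activin B, changed most in pregnant liver. Probe set 1426858_at read 5.10, 4.50 and 5.82 in virgin liver and 7.11, 7.26 and 7.96 in pregnant liver. Every pregnant pool was more than 1 log2 unit above every virgin pool, and the virgin pools were the more scattered (SD 0.66 against 0.45). The level rose 4.93-fold (log2 2.30 ± 0.26, SE, limma adjusted p = 3.92e-05, 3 pools a group). That SE and p-value use a spread shared with lung, where pools were less scattered (SD 0.107 in virgin and 0.132 in pregnant mice). With the 6 liver arrays fitted alone the rise still passed (limma adjusted p = 0.00179). Pools 1 and 2 alone gave 2.39 and pool 3 alone 2.14, and the rise passed whichever single array was left out (highest adjusted p = 0.000364).

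The second Inhbb probe set gave a smaller value. Probe set 1426859_at read 5.95, 5.80 and 6.01 in virgin and 6.46, 6.33 and 6.04 in pregnant liver. These groups did not overlap either, yet the change of 0.36 (95% interval 0.10 to 0.62) did not pass (limma adjusted p = 0.0947). Its interval lay below that of the first probe set, 1.75 to 2.86, which uses the spread shared with the less scattered lung pools. Pools 1 and 2 alone gave 0.52 (limma adjusted p = 0.0313) and pool 3 alone 0.03. The mean of both probe sets rose by 1.33 (log2, limma adjusted p = 4.14e-05).

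In lung Inhbb stayed within a narrow range. Probe set 1426858_at read 6.86, 6.67 and 6.85 in virgin and 7.16, 6.89 and 7.01 in pregnant lung, groups that lay next to each other without overlap. The change of 0.22 did not pass (95% interval -0.33 to 0.78, adjusted p = 0.977), and 1426859_at had one of -0.08 (adjusted p = 0.991). For 1426858_at the interval uses a spread shared with liver, where pools were more scattered than in lung (lung SD 0.107 in virgin and 0.132 in pregnant mice). By 1426858_at the order of the groups was pregnant liver (7.44), pregnant lung (7.02), virgin lung (6.80) and virgin liver (5.14), and the pools of pregnant liver and pregnant lung overlapped. The probe sets disagreed on the virgin tissues: 1426858_at was 3.15-fold higher in lung (limma adjusted p = 6.16e-05), while 1426859_at was 1.55-fold lower in lung (limma adjusted p = 0.000444). Which part of the transcript each probe set reads was not examined here, so a tissue difference of Inhbb has no settled direction.

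Inhba, the subunit of activin A, was higher in liver than in lung and had a small difference with pregnancy in liver. Probe set 1422053_at read 6.96, 6.90 and 7.02 in virgin and 7.34, 7.12 and 7.47 in pregnant liver. The groups did not overlap, and the change of 0.35 ± 0.12 (log2, SE) did not pass (adjusted p = 0.0792). It passed without pregnant liver pool 2 (0.45, limma adjusted p = 0.0388) and with the mean of both probe sets (0.44, limma adjusted p = 0.0113). That mean takes in the second probe set, which lay within the reference for genes without shown signal. In lung 1422053_at read 5.59, 5.49 and 5.37 in virgin and 5.77, 5.49 and 5.73 in pregnant mice, with overlap (change 0.18, adjusted p = 0.854). Virgin lung was 2.78-fold below virgin liver (limma adjusted p = 2.35e-08). The second probe set, 1458291_at, passed in liver with a rise of 0.53 (limma adjusted p = 0.0342), but all 4 of its group means lay within the reference for genes without shown signal. That call was lost without virgin liver pool 1, 2 or 3 or pregnant liver pool 1 (highest adjusted p = 0.121), and pools 1 and 2 alone gave 0.63 against 0.33 in pool 3.

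Inhbc and Inhbe were liver genes here. Inhbc read 8.95, 9.10 and 9.50 in virgin and 9.46, 9.37 and 9.62 in pregnant liver, where the groups overlapped and the change of 0.30 did not pass (95% interval -0.19 to 0.79, adjusted p = 0.509). It was 0.39 in pools 1 and 2 and 0.11 in pool 3. Its lung means of 3.75 and 4.02 lay within the reference for genes without shown signal. Inhbe read 7.08, 6.63 and 6.92 in virgin and 6.89, 6.75 and 7.28 in pregnant liver, also with overlap (change 0.10, 95% interval -0.20 to 0.39, adjusted p = 0.763). Here pools 1 and 2 gave -0.03 and pool 3 gave 0.35. In virgin lung Inhbe read 2.79, 2.81 and 2.95 and in pregnant lung 3.28, 3.37 and 3.42, again within the reference. These lung groups did not overlap, and the change of 0.51 ± 0.14 (log2, SE) did not pass (adjusted p = 0.212). Virgin lung was below virgin liver by 5.44 for Inhbc and by 4.03 for Inhbe on the log2 scale (limma adjusted p = 1.18e-11 and 1.12e-12).

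Inhbc and Inhbe are next to each other on mouse chromosome 10, with 0 genes listed between them in the RefSeq gene table. Their promoter windows are shown beside that of Inhbb because these genes carried the liver pattern: the neighbours share a level seen in liver alone in both states, and Inhbb is the subunit that rose there. RefSeq promoter windows (GRCm38.p6) matched 8 of the 9 members, all but Fst. Each line gives the 250 bases before the gene's start, 5′ to 3′, and capitals mark any match, on either strand, to TATAAA (the TATA box), GGGCGG (the GC box), TTCNNNGAA (the STAT motif), GTTAAT (an HNF1 half-site) or CAGAC (the SMAD motif).
Inhbb, chr1:119422249-119422498, minus strand: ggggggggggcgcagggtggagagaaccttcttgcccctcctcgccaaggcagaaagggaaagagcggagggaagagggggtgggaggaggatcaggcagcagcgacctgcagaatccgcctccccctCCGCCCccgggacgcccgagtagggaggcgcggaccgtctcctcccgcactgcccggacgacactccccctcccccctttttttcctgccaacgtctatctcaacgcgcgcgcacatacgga
Inhbc, chr10:127370549-127370798, minus strand: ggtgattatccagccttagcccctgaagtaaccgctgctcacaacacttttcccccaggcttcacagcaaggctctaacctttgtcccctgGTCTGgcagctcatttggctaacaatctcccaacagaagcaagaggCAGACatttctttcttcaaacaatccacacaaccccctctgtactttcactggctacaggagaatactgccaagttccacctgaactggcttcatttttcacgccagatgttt
Inhbe, chr10:127351849-127352098, minus strand: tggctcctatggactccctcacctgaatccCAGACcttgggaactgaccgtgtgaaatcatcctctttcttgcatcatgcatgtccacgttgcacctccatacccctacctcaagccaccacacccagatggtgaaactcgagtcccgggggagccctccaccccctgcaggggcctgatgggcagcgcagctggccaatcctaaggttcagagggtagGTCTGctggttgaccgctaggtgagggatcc

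The Inhbb window held 21 CG pairs, above the upper quartile of 16 over all 32851 windows of this length, and 1 GC box, which 32.7% of all windows hold. The Inhbc and Inhbe windows held 2 and 6 CG pairs, where the median was 6, and no GC box. Each of the neighbours held 2 matches to CAGAC, a pentamer with at least 1 match in 42.2% of all windows. The share of windows with 2 or more matches was not counted. These traits were not limited to the printed windows. Fstl3, Acvr2a, Acvr2b and Acvr1b, all higher in lung, held 22, 49, 24 and 42 CG pairs, and each held GC boxes. Fstl3 also held 2 matches to CAGAC, and Acvr2a and Acvr2b 1 each. None of the 3 printed windows held TATAAA (12.4% of all windows), TTCNNNGAA (7.02%) or GTTAAT (6.43%). The window of Inhba, a subunit that was also higher in liver, is not printed and did hold TATAAA, as did that of Fstl3. A match of letters is a description of the sequence, and so is the lack of one.

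The receptor genes showed no change with pregnancy that passed for the probe sets that stood for them. Acvr1b, the type I receptor, read 9.54, 9.54 and 9.53 in virgin and 9.69, 9.82 and 9.74 in pregnant lung. These groups did not overlap, but the change of 0.21 ± 0.10 (log2, SE) did not pass (adjusted p = 0.71). In liver Acvr1b read 8.16, 7.87 and 7.99 in virgin and 8.03, 7.89 and 8.11 in pregnant mice, with a change of 0.00 and a 95% interval of -0.22 to 0.22. Pools 1 and 2 gave -0.06 and pool 3 gave 0.12 for Acvr1b. Its second probe set, 1422098_at, had pregnant liver values of 5.27, 4.78 and 4.33 and a change of 0.25 (adjusted p = 0.475). Pools 1 and 2 alone gave 0.59 (limma adjusted p = 0.0347) and pool 3 alone -0.43, so its sign depended on the pools. The mean of this probe set lay within the reference for genes without shown signal in virgin liver (4.55) and in both lung groups. In pregnant liver it was 4.80, above the reference.

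Acvr2a, a type II receptor, read 9.06, 9.27 and 9.27 in virgin and 9.16, 9.11 and 9.13 in pregnant lung, and 8.68, 8.65 and 8.45 in virgin and 8.68, 8.75 and 8.65 in pregnant liver. Groups of the same tissue overlapped, and the changes of -0.07 and 0.10 had 95% intervals of -0.28 to 0.15 and -0.11 to 0.31 (log2, adjusted p = 0.992 and 0.631). Its second probe set, 1451004_at, had a change of 0.43 in liver (adjusted p = 0.11), which passed with a term for both liver arrays on which the control RNAs were low (limma adjusted p = 0.0284) and without pregnant liver pool 3 (0.032).

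Acvr2b, the other type II receptor, had 3 probe sets. For 1419140_at the lung values were 6.13, 5.85 and 5.83 in virgin and 5.70, 5.96 and 5.89 in pregnant mice, and the liver values 5.46, 5.24 and 5.77 and 5.33, 5.63 and 5.84. Its changes were -0.09 in lung and 0.11 in liver (adjusted p = 0.994 and 0.754). Probe set 1439856_at had changes of -0.31 in lung and -0.23 in liver (adjusted p = 0.737 and 0.457) at levels between 4.12 and 4.98, and its liver change was -0.07 in pools 1 and 2 and -0.55 in pool 3. Probe set 1440525_at lay within the reference for genes without shown signal in all groups, and its liver change was -0.1 in pools 1 and 2 and 0.13 in pool 3.

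All 9 genes differed between virgin lung and virgin liver, where 66.7% of all 18193 genes did. Fst is in this count as a description, since its virgin lung level enters the change from which the family was picked. Fstl3, Inhbb, Acvr2a, Acvr2b and Acvr1b were higher in lung and Fst, Inhba, Inhbc and Inhbe higher in liver by the probe sets that stood for them. Acvr1b was 2.89-fold and Acvr2a 1.52-fold higher in lung (limma adjusted p = 3.34e-09 and 9.12e-05). Acvr2b was 1.36-fold higher (limma adjusted p = 0.0226), a call lost with quantile normalization of the 12 arrays (log2 0.23, adjusted p = 0.239), with the mean of its probe sets (0.09, adjusted p = 0.358), and without virgin lung pool 1 (0.102), virgin liver pool 1 (0.0566) or virgin liver pool 2 (0.108). The second probe sets of Inhba, Acvr2a and Acvr1b and both other ones of Acvr2b did not pass in this comparison.

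**Figure D2:**
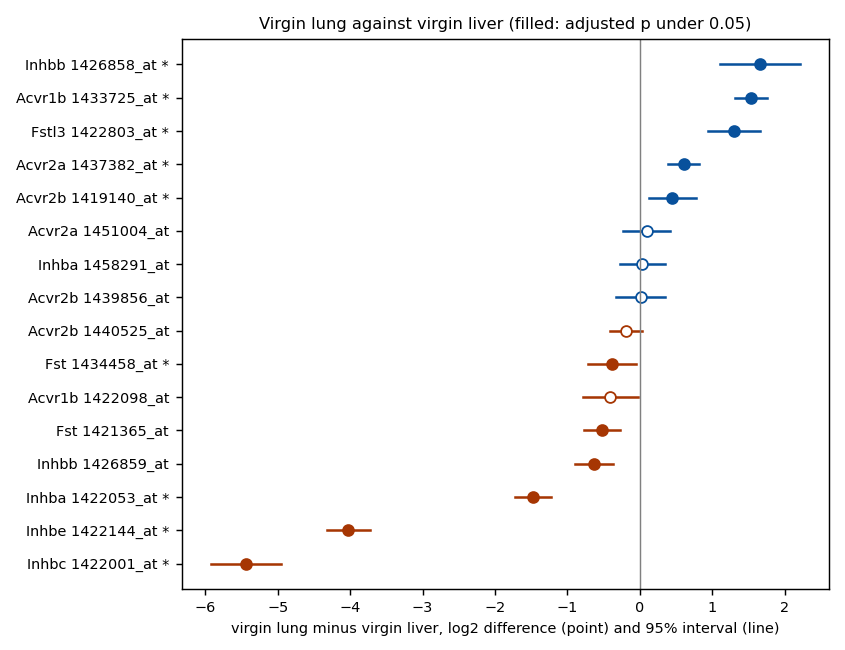
Log2 difference between virgin lung and virgin liver for the 16 member probe sets, with points for the fitted difference, lines for the 95% interval and filled points for a limma adjusted p under 0.05. Inhbc and Inhbe lie far to the left, at -5.44 and -4.03, and Inhbb appears on both sides of 0, at 1.66 and -0.63.

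With pregnancy 1 of the 9 genes was called in lung, Fst, the gene from whose rise the family was picked, where 0.33% of all genes were called, and nothing is read from that count. In liver 2 of 9 were called, Inhbb upwards and Fst downwards, where 11.1% of all genes were. Virgin and pregnant pools were fully separate for 4 members in lung (Fst, Inhbb, Inhbe and Acvr1b), where that held for 18.4% of all genes. Fst is among them through the way the family was picked, and Inhbe lay within the reference for genes without shown signal. Nothing is read from this lung count either. In liver they were separate for 3 members (Fst, Inhba and Inhbb), where it held for 28% of all genes. The median change of the 9 genes, Fst included, was 0.21 in lung and 0.10 in liver, where that of all genes was -0.01 in each.

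**Figure D3:**
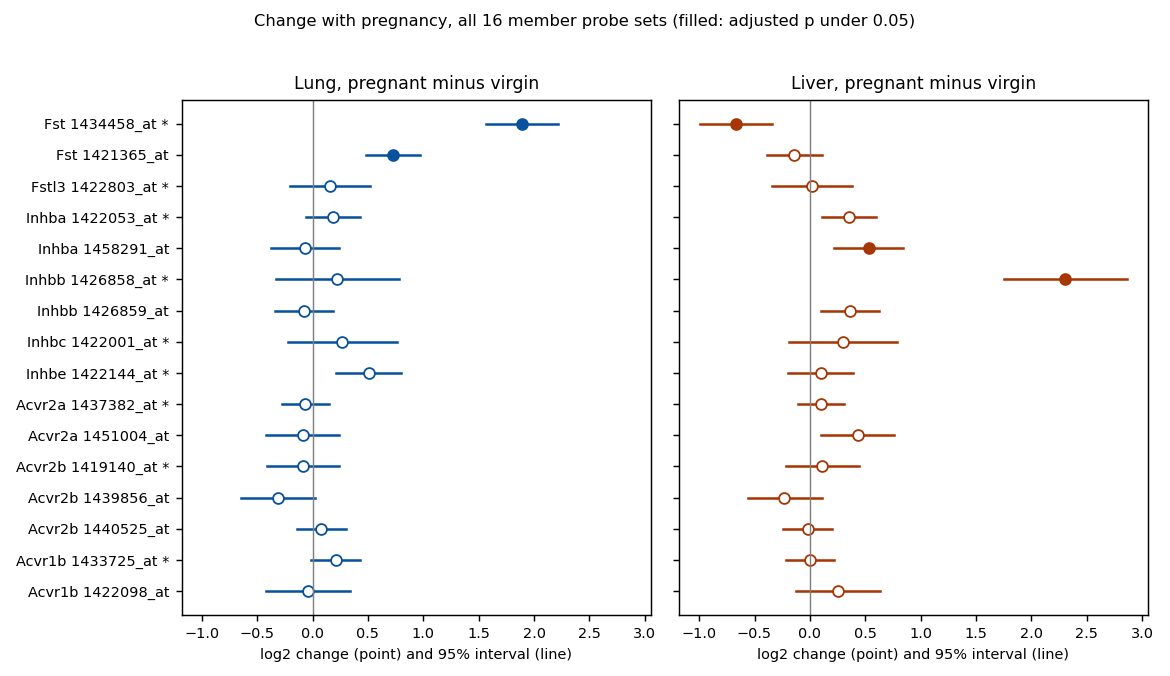
Log2 change from virgin to pregnant for the 16 member probe sets in lung (left) and liver (right), with points for the fitted change, lines for the 95% interval and filled points for a limma adjusted p under 0.05. Fst is to the right of 0 in lung (1.89 and 0.73) and to the left in liver (-0.67 and -0.14), and Inhbb 1426858_at stands at 2.30 in liver and 0.22 in lung.

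Besides Fst, whose difference between the lung and the liver change is not read as a test, 1 of the other 8 genes was called for that difference, where 5.07% of all genes were called. For this gene, Inhbb, probe set 1426858_at gave -2.08 ± 0.37 (log2, SE, lung minus liver, limma adjusted p = 0.00433). By the second Inhbb probe set the difference was -0.44 and did not pass (adjusted p = 0.233). For Fst 1434458_at the difference was 2.56 ± 0.22 and for 1421365_at 0.86 ± 0.16, given as descriptions since they hold the lung change. For the remaining 7 genes it ran from -0.20 for Acvr2b to 0.41 for Inhbe and did not pass.

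Other genes of the TGF-beta family pathway were taken from 5 lists with 57 genes, of which 53 were on the arrays. In liver 5 of these 53 rose, 5 fell and 43 did not pass, where 11.1% of all genes were called, and the median change was 0.02. The counts of single lists below have that same background. Among the ligands Nodal rose by 0.95 ± 0.19 (log2, SE, limma adjusted p = 0.00594). It read 5.53, 5.30 and 5.94 in virgin and 6.15, 6.49 and 6.98 in pregnant liver, without overlap. Nodal signals through Acvr1b and the same type II receptors as activins. Inha, whose product joins a beta subunit to form inhibin, had a change of 0.07 (adjusted p = 0.882).

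Among the receptors and coreceptors 1 of 13 rose and 3 fell in liver. Tgfbr2, the type II receptor of TGF-beta, read 8.36, 8.16 and 8.11 in virgin and 9.01, 8.68 and 8.96 in pregnant liver and rose by 0.67 (log2, limma adjusted p = 0.00111). Tgfbr3, or betaglycan, a coreceptor through which inhibin hinders activin binding, read 8.85, 8.76 and 8.88 in virgin and 8.23, 8.32 and 8.22 in pregnant liver and fell by 0.57 (log2, limma adjusted p = 0.0014). Neither passed with the mean of all its probe sets (0.14 and -0.27, adjusted p = 0.308 and 0.127). Bambi, a decoy receptor without a kinase domain, fell by 0.50, and Acvr1, a type I receptor used by BMPs, by 0.37 (log2, limma adjusted p = 0.0215 and 0.0262). Acvr1 changed by -0.18 with the mean of its probe sets (adjusted p = 0.167). Both calls were lost without single liver arrays: that of Bambi without virgin pool 2 or 3 or pregnant pool 1 or 2 (highest adjusted p = 0.0977), and that of Acvr1 without virgin pool 1 or 2 or pregnant pool 1 or 2 (highest adjusted p = 0.104).

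Inhibitory Smads changed in liver in opposite directions. Smad6, which hinders mainly BMP signals, read 7.48, 7.09 and 7.28 in virgin and 8.11, 8.15 and 8.23 in pregnant liver and rose by 0.88 ± 0.12 (log2, SE, limma adjusted p = 0.000171). Smad7, which hinders activin and TGF-beta signals as well and is itself induced by them, read 7.19, 7.03 and 7.28 in virgin and 6.04, 6.71 and 6.20 in pregnant liver and fell by 0.85 ± 0.15 (log2, SE, limma adjusted p = 0.00189). In lung Smad7 read 8.56, 8.61 and 8.83 in virgin and 9.10, 9.32 and 9.18 in pregnant mice, also without overlap, but its change of 0.53 did not pass (adjusted p = 0.226). The lung change of Smad7 differed from its liver change by 1.39 ± 0.21 (log2, SE, limma adjusted p = 0.00131).

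Of the other Smad regulators Skil, a corepressor that binds Smads, rose by 0.52 in liver and Smad1, which carries BMP signals, fell by 0.40 (log2, limma adjusted p = 0.00887 and 0.013). Smad2 and Smad3, the Smads that activin receptors phosphorylate, had changes of 0.13 and 0.22 (adjusted p = 0.605 and 0.271), and Smad4, their common partner, one of -0.20 (adjusted p = 0.226). Among the response genes 1 rose, 2 fell and 6 of 9 did not pass in liver, and the 3 that passed (Skil, Smad7 and Bambi) also stood in the lists above. Of 9 extracellular inhibitors Grem1, a BMP antagonist, rose by 0.35 in liver (limma adjusted p = 0.0358), a call lost without virgin liver pool 1 or 2, pregnant liver pool 1 or 3, virgin lung pool 2 or pregnant lung pool 2 (highest adjusted p = 0.118), with each array centred on its median (0.0529) and within liver pools 1 and 2 (0.0711).

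In lung 0 of the 53 pathway genes passed with limma, where 0.33% of all genes did, and 7 had an unadjusted p under 0.05, as did 9.32% of all genes. Smad6 and Eng, an endothelial coreceptor of TGF-beta and BMP signals, came nearest, with changes of 0.60 ± 0.12 and 0.50 ± 0.10 (log2, SE, adjusted p = 0.0512 and 0.0612). Smad6 read 10.61, 10.77 and 10.94 in virgin and 11.30, 11.38 and 11.45 in pregnant lung, and Eng 10.05, 9.81 and 9.82 and 10.45, 10.36 and 10.36, both without overlap. With 1 probe set per gene in the fit both passed (limma adjusted p = 0.0338 and 0.0349). In the remaining lists the smallest p belonged to Lefty1 (-0.34, adjusted p = 0.383), Fstl1 (-0.24, adjusted p = 0.684) and Skil (0.44, adjusted p = 0.171).

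**Figure D4:**
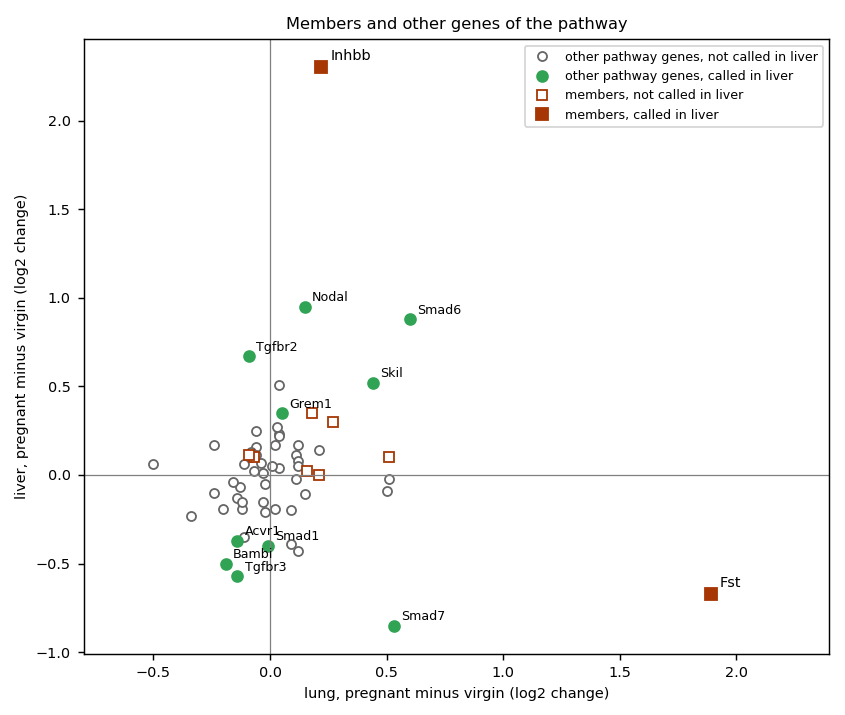
Log2 change from virgin to pregnant in lung (horizontal) and liver (vertical) for the 9 members (squares) and the 53 other pathway genes (circles), filled where the liver change had a limma adjusted p under 0.05. Inhbb stands alone at the top (2.30 in liver), Fst at the lower right (1.89 in lung, -0.67 in liver), and Smad7 lies at 0.53 in lung and -0.85 in liver.

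Among 6087 genes whose group means spanned at least 1 log2 unit, those with the highest Pearson correlation with Fst over the 12 arrays were Prl8a2 (0.91), Adm (0.896) and Mmp13 (0.885). Prl8a2 is a prolactin family gene known from decidua, Adm encodes the vasodilator adrenomedullin and Mmp13 a collagenase. Their lung changes were 2.68, 1.09 and 1.01 and their liver changes 0.15, -0.29 and -0.26 on the log2 scale. Mmp13 lay within the reference for genes without shown signal in all 4 groups, and Prl8a2 in the other 3 than pregnant lung. For Inhbb 1426858_at they were Klhdc8a (0.962), Fndc3b (0.954) and Rap1gap2 (0.939), with liver changes of 1.08, 1.68 and 2.00 and lung changes of 0.00, 0.02 and 0.03. The 12 arrays share tissue and pregnancy, so these values describe a common pattern over 4 groups.

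Lists of cell type markers were set beside these changes. The decidua and trophoblast list, of which 7 of 10 members were on the arrays, had a mean log2 level of 2.74 to 2.90 in virgin and 3.47 to 3.79 in pregnant lung, and Prl8a2 and Prl7b1 passed upwards. All 7 lay within the reference for genes without shown signal in virgin lung, and Prl3c1, Prl4a1, Prl5a1, Prl7b1 and Tpbpa still did in pregnant lung. The neutrophil list of 6 markers had a mean of 7.14 to 7.31 in virgin and 7.52 to 8.18 in pregnant lung, with S100a9 passing, and of 5.65 to 5.71 in virgin and 6.13 to 6.39 in pregnant liver, with S100a8 and S100a9 passing. In liver S100a8 went from a mean of 6.99 to 8.49 and S100a9 from 7.03 to 8.32, while the neutrophil receptors Csf3r and Cxcr2 had changes of 0.05 and 0.01 that did not pass, and the list's median was 0.25. In lung that median was 0.55. The fibroblast and stellate cell list had a mean of 9.30 to 9.51 in virgin and 9.01 to 9.29 in pregnant lung, and of 7.95 to 8.09 and 7.76 to 7.94 in liver. Of its 9 members Lrat fell in both tissues and 8 did not pass in each. The part of these cells in the values of Fst and Inhbb was not tested. All 9 hepatocyte markers had liver changes that did not pass, with a median of 0.13. The endothelium, macrophage, and smooth muscle and mesothelium lists had no marker that passed in either tissue. Their medians were, in that order, -0.21, -0.28 and -0.18 in liver and 0.15, 0.03 and 0.04 in lung. Of the exocrine pancreas list 5 of 7 markers were on the arrays. In liver Cela2a fell by 0.87 (log2, limma adjusted p = 0.0127) and the other 4 did not pass. No marker of this list passed in lung.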

How the data were processed

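RNA from pooled tissue was measured on 12 arrays. The authors deposited log2 values per probe set, made with RMA in the affy package per the submitters' processing notes, which give no versions and do not name the arrays normalized together. Without the 64 controls, 45037 probe sets entered a fit of the 4 group means with limma 3.58.1 in R 4.3.3 (8 residual and 6.59 prior degrees of freedom), without a filter, and Benjamini-Hochberg adjusted p under 0.05 over all of them was called. In the counts each of 18193 genes was represented by the probe set with the highest mean. All member probe sets were named, together with every called pathway gene, the gene with the smallest p in a list with none called, and 3 genes of highest correlation per called member. The members and lists were chosen with earlier results of these data known. The labels do not say whether same-numbered lung and liver pools came from the same mice. Deviations of same-numbered arrays correlated between -0.08 and 0.11, which cannot settle this. Pool numbers were not treated as pairs in the main fit, and a fit with pool number as a block was among the alternatives. The steps were tested on simulated data. Alternatives were fits of fewer arrays, leaving out dim probe sets, other ways of combining probe sets, rescaling, other variance models, array weights, blocks, a stricter threshold of 0.01 and leaving out each array.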

Additional observations from a re-analysis of the deposited data

Results flagged for a closer look

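The change with pregnancy differed between lung and liver for Inhbb 1426858_at by a direct test of the difference, at -2.08 (log2, lung minus liver, limma adjusted p = 0.00433). It passed whichever single array was left out (highest adjusted p = 0.0164). For Fst 1434458_at the difference was 2.56, a description since its lung change was known when the genes were chosen. In pregnant liver its mean of 4.56 lay within the reference for genes without shown signal, while pool 1 read 4.93, above it.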

How the results depend on the processing

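Over 15 settings and the 12 fits without 1 array, no called member change turned its sign. For a pregnancy change or a virgin tissue difference leaving out an array could not do so, as the called groups were separate. Some settings alter only the p-value and keep the value of the change. In liver the count of called members went from 2 to 1 with the 6 liver arrays alone, within liver pools 1 and 2 and at an adjusted p under 0.01, and ran from 1 to 2 without single arrays, and Fst was the member lost. It was 3 with dim probe sets left out and with the mean of all probe sets, where Inhba passed. The difference for Inhbb 1426858_at passed in each of the 24 fits that gave it, and the count of 9 between virgin tissues ran from 7 to 9. The count of called pathway genes in lung, 0 as reported, was 2 with dim probe sets left out, with 1 probe set per gene, with the mean of all probe sets and with array weights, 1 with suffixed probe sets left out and with median centring, 3 with trend and robust moderation, and 0 to 1 without single arrays. In liver it went from 10 to 6 with the 6 liver arrays alone and at an adjusted p under 0.01. With pool number as a replicate block the counts of called members were 2 in liver and 8 between virgin tissues, where Fst was lost (-0.50, limma adjusted p = 0.0949). In liver Acvr2a 1451004_at passed under this block (0.43, limma adjusted p = 0.0393) and the calls of Acvr1 and Grem1 were lost (limma adjusted p = 0.0679 and 0.064). Centring or quantile normalization moved the median of all genes by at most 0.031. Values below 4.26 in lung and 4.59 in liver are not shown to exceed background.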
